A study of Mus musculus with 5 samples.

Results

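The genes described here encode 8 ligands of the VEGF and PDGF family: Vegfa, Vegfb, Vegfc, Pgf, Pdgfa, Pdgfb, Pdgfc and Pdgfd. They were taken by gene symbol from the 46959 genes of the count tables, and all 8 were found there. The study sequenced RNA of D4M.3A cells, a line from a Braf-mutant melanoma of a C57BL/6 mouse. The groups were D4M.3A cells with caMNK, a constitutively active MNK1 kinase (n = 3 libraries), and D4M.3A cells with the pBABE vector alone (n = 2 libraries), both labelled as passages 7 to 12. MNK1 phosphorylates the cap-binding translation factor eIF4E. Whether each line is a clone or a pool is not given in the sources used here. Because each group is a single line, the kinase and any other feature of that line cannot be told apart. The libraries are described as biological replicates, but what made them separate is not stated, so the p-values speak for the spread between libraries, which may be technical.

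VEGF and PDGF ligands are secreted dimers that share a cystine-knot fold and signal through receptor tyrosine kinases. VEGF ligands act mainly on endothelial cells: VEGF-A drives blood vessel growth through the receptors encoded by Flt1 and Kdr, VEGF-B and placental growth factor (Pgf) bind the Flt1 product, and VEGF-C and VEGF-D drive lymphatic vessel growth through the Flt4 product. PDGF ligands act on fibroblasts, pericytes and other mesenchymal cells through the receptors encoded by Pdgfra and Pdgfrb. Tumour cells, melanoma included, secrete ligands of both branches.

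In these cells, 2 of the 8 ligand genes changed: Vegfb and Pdgfd were lower with caMNK, and none was called higher. Pdgfc, the lymphatic ligand gene Vegfc and Pdgfa did not overlap between the groups but missed the threshold. Pdgfc was lower, and Vegfc and Pdgfa were higher, with caMNK. Such a lack of overlap was seen for 44.9% of all genes tested. Per kb of gene length, Vegfa, Vegfb and Pdgfa were the most abundant of the 8 ligand transcripts. Vegfa, Pgf and Pdgfb overlapped between the groups and were not called. The comparison used edgeR's quasi-likelihood test over 17026 genes, with an adjusted p (Benjamini-Hochberg over all of them) under 0.05 as the threshold. All 8 ligand genes passed the filter on low counts. Over all genes tested, 7.94% passed, 3.52% as falls and 4.42% as rises. Among the ligand genes, 0 rose and 2 fell, and the median log2 fold change of caMNK over pBABE was −0.07, against −0.0021 over all genes tested.

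The promoters of the called genes Vegfb and Pdgfd are shown, with that of Vegfa for comparison. They differ in base composition and in the matches they hold, although both called genes fell. Each line gives the 250 bases before the RefSeq transcript start, 5′ to 3′ in the direction of the gene, from RefSeq on GRCm38.p6. They lie at chr19:6987652-6987901 (minus strand) for Vegfb, chr9:6168236-6168485 (plus strand) for Pdgfd and chr17:46032378-46032627 (minus strand) for Vegfa. Capitals mark matches, on either strand, to GGGCGG (the GC box bound by Sp1), GCGGGGGCG (the EGR1 site), ACGTG or GCGTG (cores of the hypoxia response element) and TATAAA (the TATA element). TGANTCA (the AP-1 site) was searched too and had no match in the windows shown.
Vegfb: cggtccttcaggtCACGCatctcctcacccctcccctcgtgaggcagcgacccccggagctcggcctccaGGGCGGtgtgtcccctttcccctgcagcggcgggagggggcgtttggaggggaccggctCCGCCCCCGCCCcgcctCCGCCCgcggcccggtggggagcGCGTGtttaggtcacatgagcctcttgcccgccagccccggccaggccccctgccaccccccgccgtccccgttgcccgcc
Pdgfd: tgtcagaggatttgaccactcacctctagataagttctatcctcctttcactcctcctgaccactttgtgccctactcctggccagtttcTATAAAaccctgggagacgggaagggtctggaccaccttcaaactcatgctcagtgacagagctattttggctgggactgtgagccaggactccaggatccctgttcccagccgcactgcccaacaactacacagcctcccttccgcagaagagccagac
Vegfa: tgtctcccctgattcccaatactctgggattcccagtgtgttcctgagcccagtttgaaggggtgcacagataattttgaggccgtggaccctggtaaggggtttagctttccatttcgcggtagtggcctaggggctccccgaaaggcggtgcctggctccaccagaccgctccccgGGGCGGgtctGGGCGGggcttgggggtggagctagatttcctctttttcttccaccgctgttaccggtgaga

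The Vegfb window was 76.4% G and C with 26 CpG dinucleotides, and held 4 GC boxes and 1 EGR1 match, at bases 120 to 112 before the start, that overlapped 2 of the GC boxes. It also held 2 matches to GCGTG. The Pdgfd window was 53.6% G and C with 3 CpG dinucleotides. Its match was the letters TATAAA at bases 160 to 155 before the start, not shown to be a working TATA element. The Vegfa window shown was 59.2% G and C with 11 CpG dinucleotides and held 2 GC boxes. Vegfa also had another window, inside the gene at chr17:46025164-46025413 and not shown, which was 59.6% G and C and held 1 GC box. It held the letters of both hypoxia cores, ACGTG at bases 211 to 207 and GCGTG at bases 218 to 214 before that start. That window lies within the transcribed span of Vegfa, so these letters can be part of its transcript and are not shown to be a hypoxia response element. Over 32851 RefSeq windows of the same length the median was 52.4% G and C and 6 CpG dinucleotides. Of those windows, 32.7% held a GC box, 2.57% the EGR1 site, 16.6% ACGTG, 28.2% GCGTG, 12.4% the TATA element and 6.75% the AP-1 site. Of the 8 ligand genes, 7 matched a RefSeq promoter, with 10 windows in all. Of these, Pdgfc, at 50.8% G and C with 3 CpG dinucleotides and 0 matches, was the window most like that of Pdgfd in base composition, and those of Vegfc, Pgf and Pdgfa lay between 66.4% and 72.4% G and C. A match is a run of letters in the window and shows no binding.

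The targeted gene was checked first. Mknk1 had 167, 155 and 168 CPM (the count relative to the library total after edgeR's TMM scaling) in the caMNK libraries, against 15.2 and 16.7 CPM in the pBABE libraries. Library totals lay between 27827199 and 48794336 counts. Mitochondrial mRNAs held 1.95%, 2.16% and 1.91% of counts in caMNK and 1.20% and 1.32% in pBABE, and their part in the results below was not tested. Of the melanocyte lineage markers Sox10, Mitf, Tyr, Dct, Pmel, Mlana, Tyrp1 and S100b, 3 of 8 passed the filter on low counts, Dct and Tyrp1 had 0 counts in every library, and the summed level was 7.27 to 9.13 CPM in caMNK and 8.99 to 9.33 CPM in pBABE. Sox10, Tyr and Mlana had at most 2 counts in any library. Mitf, S100b and Pmel were the most abundant of the list, S100b and Pmel in regions that share reads with Dip2a and Cdk2, and none was called, though Mitf passed as a fall without caMNK replicate 2 (edgeR adjusted p = 0.0301). Of the caMNK libraries, replicate 2 stood apart from the other 2: leaving it out raised the genes called over the whole table to 29.6%.

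Vegfb encodes VEGF-B, a ligand of the Flt1 receptor with weaker vessel-forming activity than VEGF-A. It lies on chromosome 19 (mm10, 6982473 to 6987651, minus strand). It measured 26.4, 30.3 and 29.9 CPM in caMNK, against 40.8 and 38.7 CPM in pBABE. Every caMNK library lay below both pBABE libraries. Vegfb was 1.38-fold lower in caMNK (28.9 ± 2.16 CPM in caMNK and 39.8 ± 1.48 CPM in pBABE, SD, n = 3 and 2), with a log2 fold change of −0.46 (SE 0.0980, 95% interval −0.68 to −0.24, edgeR adjusted p = 0.0278).

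Vegfa, the main blood vessel growth factor and a known target of hypoxia-inducible factors, had 71.0, 75.2 and 88.9 CPM in caMNK, against 82.9 and 83.1 CPM in pBABE. The pBABE values lay inside the caMNK range. The log2 fold change was −0.08 (95% interval −0.33 to 0.16, edgeR adjusted p = 0.680). The Vegfb estimate of −0.46 lay outside this interval, but the intervals of Vegfa and Vegfb (−0.68 to −0.24) overlapped. The counts pool all Vegfa isoforms, which differ in how they bind matrix and were not resolved here. Within each library, the ratio of Vegfb to Vegfa counts, which no scaling touches, was 0.372, 0.404 and 0.336 in caMNK and 0.492 and 0.466 in pBABE. The ratios did not overlap between the groups. The exact permutation test of this ratio, two-sided, gave p = 0.2, the smallest that 3 against 2 libraries allow. Every count ratio computed between ligand genes gave this p, also that of Pdgfb to Pdgfa, so it does not set this ratio apart. The ratio restates the fall of Vegfb and is no further evidence of it.

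Pgf encodes placental growth factor, which shares the Flt1 receptor with VEGF-A and VEGF-B. It measured 19.7, 18.1 and 24.8 CPM in caMNK and 16.3 and 18.7 CPM in pBABE. The groups overlapped, and Pgf was not called (log2 fold change 0.25, 95% interval −0.09 to 0.60, edgeR adjusted p = 0.325). Without caMNK replicate 2, the lowest caMNK library, Pgf passed as a rise (log2 fold change 0.36, edgeR adjusted p = 0.0270), in a fit that called 29.6% of all genes tested. The ratio of Pgf to Vegfb counts was 0.748, 0.595 and 0.830 in caMNK and 0.400 and 0.482 in pBABE, so that Pgf counts were nearer to those of Vegfb in each caMNK library than in either pBABE library. The exact permutation test gave p = 0.2, two-sided, as it did for every such ratio, and this ratio too contains the called gene Vegfb.

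Vegfc, which encodes the lymphatic growth factor VEGF-C, was scarce. It had 48, 51 and 44 counts in the caMNK libraries, against 25 and 23 counts in the pBABE libraries. This came to 1.67, 1.05 and 1.19 CPM in caMNK and 0.600 and 0.713 CPM in pBABE, with each caMNK value above both pBABE values. Counting error alone was wide at this depth: the exact Poisson 95% interval ran from 0.781 to 1.38 CPM in caMNK replicate 2 and from 0.452 to 1.07 CPM in pBABE replicate 2. Such intervals cover counting error only. The log2 fold change of 0.97 (95% interval 0.30 to 1.64) missed the threshold (edgeR adjusted p = 0.0799). It passed when no low-count filter was used (edgeR adjusted p = 0.0171, in a fit that called 10.4% of all genes) and when caMNK replicate 2 was left out (0.0112).

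**Figure D1:**
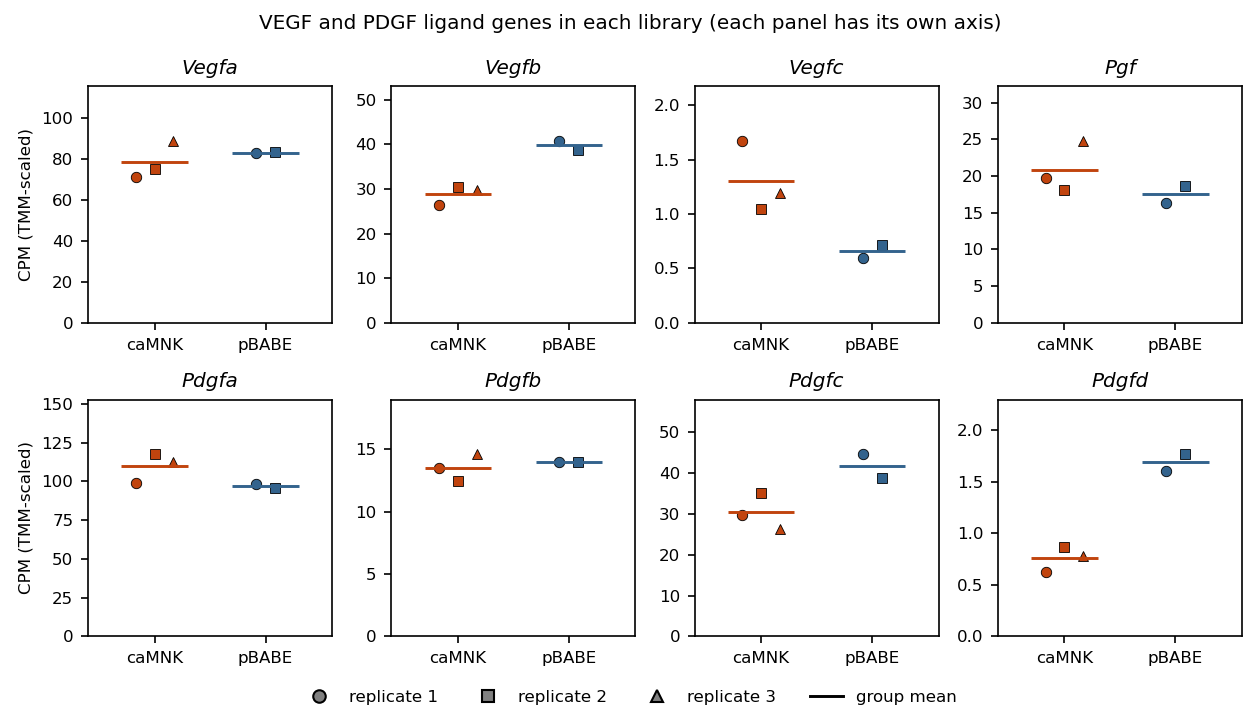
Level of each ligand gene in CPM (vertical axis, from 0, each panel on its own scale) in the 3 caMNK and 2 pBABE libraries; points are libraries, shaped by replicate, and bars are group means. Vegfb, Pdgfc and Pdgfd lie lower in every caMNK library than in either pBABE library and Vegfc and Pdgfa higher, while Vegfa, Pgf and Pdgfb overlap.

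Pdgfa encodes the A chain of PDGF, whose dimer binds the Pdgfra receptor, and had the highest CPM of the 8 ligand genes in every library. It measured 99.0, 117 and 113 CPM in caMNK, against 98.0 and 95.8 CPM in pBABE. Each caMNK library was above both pBABE libraries, in caMNK replicate 1 by little, and Pdgfa was not called (log2 fold change 0.18, 95% interval −0.04 to 0.40, edgeR adjusted p = 0.288). The antisense gene 6330403L08Rik overlaps Pdgfa by 2315 bp and had 18.0% of its counts. Reads in the overlap cannot be assigned to either gene, and 6330403L08Rik itself averaged 17.5 ± 1.57 CPM in caMNK and 21.1 ± 0.277 CPM in pBABE (SD, n = 3 and 2).

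Pdgfb, the gene of the B chain, which binds both PDGF receptors and recruits pericytes, had 13.5, 12.5 and 14.6 CPM in caMNK and 14.0 and 13.9 CPM in pBABE. The pBABE values lay inside the caMNK range, and the log2 fold change was −0.05 (95% interval −0.30 to 0.21, edgeR adjusted p = 0.828), with a sign that turned under total-count scaling.

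Pdgfc encodes the C chain, which binds Pdgfra after proteolytic removal of its CUB domain. It measured 29.8, 35.0 and 26.2 CPM in caMNK, against 44.6 and 38.9 CPM in pBABE. Every caMNK library lay below both pBABE libraries, by the size seen for Vegfb but with more spread between replicates (30.3 ± 4.39 CPM in caMNK and 41.7 ± 4.06 CPM in pBABE, SD, n = 3 and 2). The log2 fold change of −0.46 (SE 0.131, 95% interval −0.76 to −0.16) missed the threshold (edgeR adjusted p = 0.0679). It passed by DESeq2 (adjusted p = 0.0244, with 10% of all genes called), with no low-count filter (0.00163) and with caMNK replicate 2 left out (0.000205). The antisense gene Gm16000 overlaps Pdgfc by 3030 bp with 8.47% of its counts, and was lower in caMNK too: it averaged 2.08 ± 0.370 CPM in caMNK and 4.27 ± 0.207 CPM in pBABE (SD, n = 3 and 2; log2 fold change −1.02, edgeR adjusted p = 0.0166). That call was lost without pBABE replicate 1, pBABE replicate 2 or caMNK replicate 1.

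Pdgfd encodes the D chain, which binds Pdgfrb once its CUB domain is cleaved off. It lies on chromosome 9 (mm10, 6168584 to 6378850, plus strand). It had 18, 42 and 29 counts in caMNK, against 67 and 57 counts in pBABE. The levels were 0.627, 0.864 and 0.784 CPM in caMNK and 1.61 and 1.77 CPM in pBABE, with every caMNK library below both pBABE libraries. Pdgfd was 2.18-fold lower in caMNK (log2 fold change −1.12, SE 0.231, 95% interval −1.65 to −0.60, edgeR adjusted p = 0.0246), the largest fall of the 8 ligand genes. The exact Poisson 95% interval was 0.372 to 0.992 CPM in caMNK replicate 1 and 1.25 to 2.04 CPM in pBABE replicate 1.

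Of the 8 ligand genes, 5 did not overlap between the groups, 2 above and 3 below in caMNK. Over all genes tested 44.9% did not overlap, 22.3% above and 22.6% below in caMNK, so that 5 of 8 is near the background. The 2 calls also rested on few libraries. Without pBABE replicate 1, pBABE replicate 2 or caMNK replicate 1 the ligand genes called were 0 in each fit, with edgeR adjusted p-values of 0.281, 0.182 and 0.135 for Vegfb and 0.181, 0.187 and 0.0962 for Pdgfd. In those fits 0.132%, 0.31% and 1.51% of all genes passed. Without caMNK replicate 3, Vegfb and Pdgfd both passed, against 10.2% of all genes. Without caMNK replicate 2, 5 of 8 ligand genes passed, Vegfc and Pgf as rises and Vegfb, Pdgfc and Pdgfd as falls, against 29.6% of all genes. For genes that do not overlap, leaving out a library cannot turn the direction, so the kept sign is no further evidence.

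**Figure D2:**
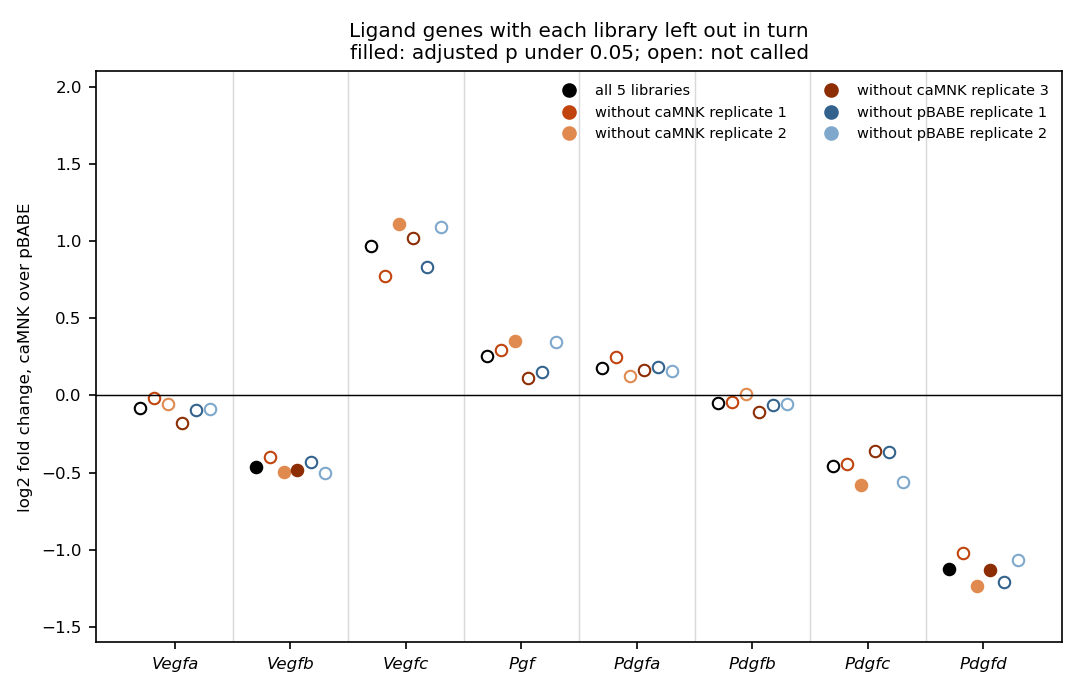
Log2 fold change of caMNK over pBABE (vertical axis) for each ligand gene (horizontal axis) with all 5 libraries and with each left out in turn; filled points passed an adjusted p of 0.05 in that fit. Vegfb and Pdgfd are filled with all 5 libraries and without caMNK replicate 2 or 3, and Vegfc, Pgf and Pdgfc without caMNK replicate 2.

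To compare levels between genes, CPM were divided by length. Per kb of the deposited length, which is the gene span with introns or close to it, Vegfb averaged 6.42 CPM per kb over the 5 libraries, Vegfa 5.21, Pdgfa 4.90, Pgf 1.83, Pdgfb 0.724, Pdgfc 0.196, Vegfc 0.00959 and Pdgfd 0.00537 CPM per kb. The ranges of Vegfb, Vegfa and Pdgfa overlapped over the libraries, as did those of Vegfc and Pdgfd, while Pgf, Pdgfb and Pdgfc stood apart from their neighbours. Among the lowest 2, the order differed by group: Vegfc was at 0.0120 ± 0.00301 and Pdgfd at 0.00361 ± 0.000572 CPM per kb in caMNK, and Vegfc was at 0.00602 ± 0.000734 and Pdgfd at 0.00802 ± 0.000535 CPM per kb in pBABE (SD, n = 3 and 2). Vegfc exceeded Pdgfd in each caMNK library and Pdgfd exceeded Vegfc in each pBABE library. These orders rest on few counts, 25 and 23 for Vegfc in the pBABE libraries, and were not set against counting error. The division depends on the length used, since exons fill 31.0% of the Vegfb span and 1.5% of the Pdgfd span. Per kb of summed GENCODE exons, Pdgfa led with 33.5 CPM per kb, ahead of Vegfb with 20.7 and Vegfa with 18.7, and Pdgfc had 6.86 and Pgf 6.72 CPM per kb. These means pool the groups, whose orders differed. On the exon scale Vegfa averaged 18.3 and Vegfb 18.0 CPM per kb in caMNK, and Vegfa averaged 19.4 and Vegfb 24.8 CPM per kb in pBABE. Pgf averaged 7.19 and Pdgfc 5.96 CPM per kb in caMNK, and Pgf averaged 6.03 and Pdgfc 8.20 CPM per kb in pBABE. The order of Vegfc and Pdgfd within each group was the same on the exon scale as on the deposited length.

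**Figure D3:**
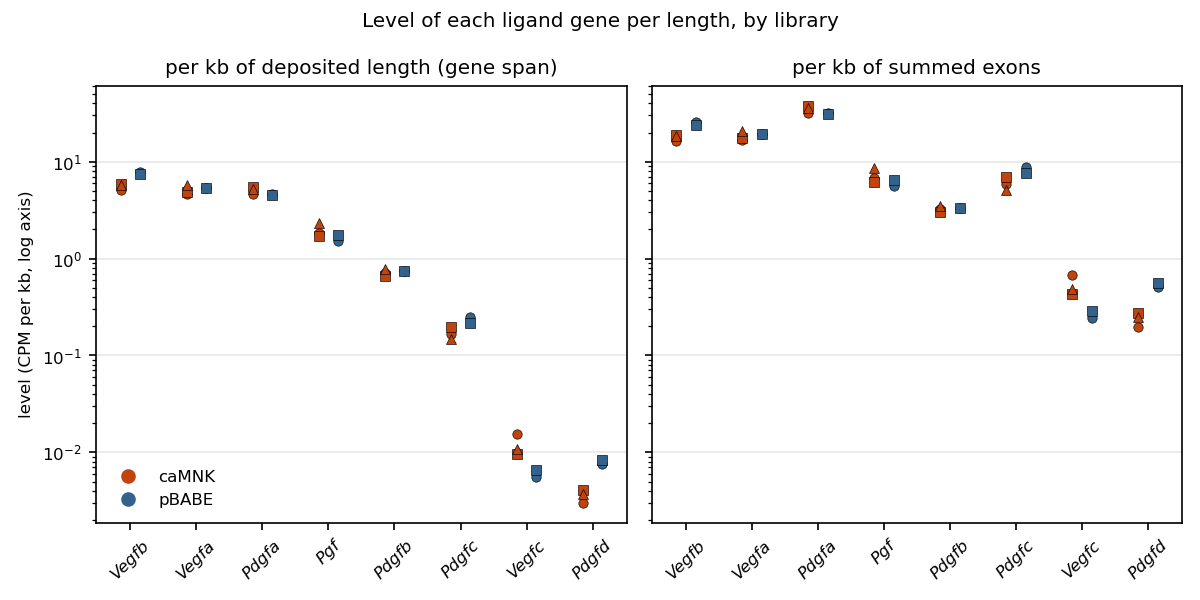
Level of each ligand gene in CPM per kb (vertical log axis) in each caMNK and pBABE library, with the deposited length on the left and summed exons on the right; each point is a library. Vegfb, Vegfa and Pdgfa are highest on both scales, Vegfc and Pdgfd lowest, and Pdgfc moves up on the exon scale.

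Of the receptor and co-receptor genes, 0 rose and 2 fell among 5 tested, and all 5 had a negative log2 fold change (median −0.41). The share of falls over all genes tested was 3.52%. Flt1, the receptor of VEGF-A, VEGF-B and placental growth factor, measured 84.9, 95.9 and 86.9 CPM in caMNK, against 114 and 123 CPM in pBABE, with no overlap. It fell 1.33-fold (log2 fold change −0.41, SE 0.0919, edgeR adjusted p = 0.0335). Nrp2, a neuropilin that acts as co-receptor for VEGF-C and for semaphorins, measured 272, 299 and 295 CPM in caMNK and 382 and 400 CPM in pBABE. It fell 1.36-fold (log2 fold change −0.44, SE 0.0851, edgeR adjusted p = 0.0197). Both calls were lost without pBABE replicate 1, pBABE replicate 2 or caMNK replicate 1.

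The related co-receptor gene Nrp1 had 78.2, 99.7 and 74.2 CPM in caMNK and 115 and 111 CPM in pBABE, and was not called (log2 fold change −0.43, edgeR adjusted p = 0.0775). The PDGF receptor genes were both measured but not called: Pdgfra averaged 42.2 ± 3.55 CPM in caMNK and 50.0 ± 6.38 CPM in pBABE (adjusted p = 0.218), and Pdgfrb 49.4 ± 7.12 CPM in caMNK and 59.5 ± 6.45 CPM in pBABE (adjusted p = 0.235; SD, n = 3 and 2). Kdr, the main signalling receptor of VEGF-A, had 3, 1 and 2 counts in caMNK and 6 and 1 counts in pBABE. Flt4, the receptor of VEGF-C, had 7, 4 and 7 counts in caMNK and 0 and 1 counts in pBABE. Neither Kdr nor Flt4 passed the filter on low counts. Without caMNK replicate 2, all 5 tested receptor genes passed as falls, against 15.7% of all genes that fell in that fit.

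**Figure D4:**
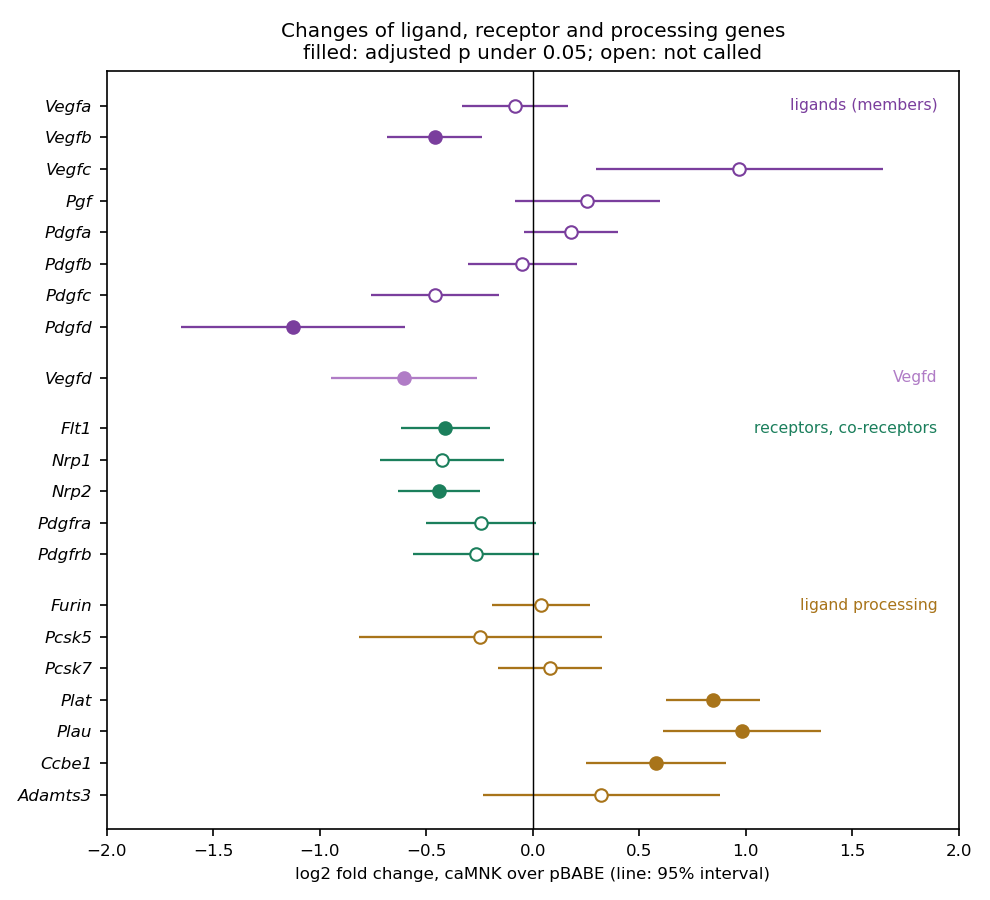
Log2 fold change of caMNK over pBABE (horizontal axis) with its 95% interval for the ligand genes, Vegfd, and the tested receptor and ligand-processing genes; filled points passed an adjusted p of 0.05. Vegfb, Pdgfd, Vegfd, Flt1 and Nrp2 are filled on the negative side and Plat, Plau and Ccbe1 on the positive side.

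Vegfd, listed under its older symbol Figf, is the close relative of Vegfc and lies outside the 8 genes. It measured 6.14, 7.53 and 5.62 CPM in caMNK, against 10.2 and 9.45 CPM in pBABE, with no overlap. It was 1.52-fold lower in caMNK (log2 fold change −0.61, SE 0.150, edgeR adjusted p = 0.0456). This call was lost with total-count scaling (0.0508), with the stricter filter (0.0502) and without any of the libraries other than caMNK replicate 2 (0.0547 to 0.332). Its log2 fold change and that of Vegfc, 0.97, had opposite signs and intervals that did not overlap.

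Several ligands of the family are secreted as precursors that proteases activate, and 3 of 7 tested genes of that list rose and 0 fell (median log2 fold change 0.32). Over all genes tested 4.42% rose and 3.52% fell. Plat, which encodes tissue plasminogen activator, known to activate PDGF-C, measured 44.4, 40.2 and 42.3 CPM in caMNK, against 24.4 and 22.6 CPM in pBABE. Plat rose 1.80-fold (log2 fold change 0.85, SE 0.0962, edgeR adjusted p = 0.00502). Plau, which encodes urokinase, shown for the human protein to activate PDGF-D, measured 353, 275 and 343 CPM in caMNK and 137 and 191 CPM in pBABE, and rose 1.98-fold (edgeR adjusted p = 0.0122). Ccbe1, whose product promotes the cleavage of VEGF-C by the protease ADAMTS3, measured 7.25, 7.96 and 8.65 CPM in caMNK and 4.92 and 5.76 CPM in pBABE, and rose too (edgeR log2 fold change 0.58 with SE 0.144, adjusted p = 0.0456). The Plat call was lost without either pBABE library (0.0741 and 0.0907) and the Plau call without pBABE replicate 1 (0.143) or caMNK replicate 1 (0.0579). The Ccbe1 call was lost without any library other than caMNK replicate 2 (edgeR adjusted p of 0.0583 to 0.397). The genes of ADAMTS3 itself and of the convertases furin, Pcsk5 and Pcsk7 were tested and not called.

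Among 14 genes that regulate transcription of these ligands, 1 rose and 1 fell, against 4.42% rises and 3.52% falls over all genes tested. Without caMNK replicate 2 the count was 2 rises and 3 falls, against 13.9% and 15.7% of all genes. Egr1, an immediate early factor known to act on PDGF chain promoters, measured 106, 84.8 and 111 CPM in caMNK, against 19.2 and 26.9 CPM in pBABE. It rose 4.37-fold (edgeR adjusted p = 0.00170) and passed without each library in turn. Of the PDGF chain genes, Pdgfa was higher in each caMNK library, Pdgfb overlapped, and Pdgfc and Pdgfd were lower in each caMNK library. Only Pdgfd was called. A link of these genes to Egr1 was not tested. Egln3, a prolyl hydroxylase that is itself induced by hypoxia-inducible factors, averaged 67.8 ± 2.84 CPM in caMNK and 109 ± 3.17 CPM in pBABE (SD, n = 3 and 2; edgeR adjusted p = 0.00526). Of 12 tested targets of these factors, 0 rose and 8 fell (median log2 fold change −0.54), against 4.42% and 3.52% of all genes tested. Their 5 lowest p-values were those of Pdk1 (−1.16), Egln3 (−0.69), P4ha1 (−0.57), Ldha (−0.73) and Pgk1 (−0.69, all log2 fold changes), with edgeR adjusted p-values between 0.00178 and 0.00999. The falls numbered 1 with either pBABE library left out, and 2, 8 and 9 with caMNK replicates 1, 2 and 3 left out in turn. Without caMNK replicate 2 there was also 1 rise, in a fit where 13.9% of all genes rose and 15.7% fell. Pdk1, a kinase that restrains the entry of pyruvate into the mitochondrial cycle, passed in each of these fits. That list holds only some targets of hypoxia-inducible factors and was chosen with earlier results known, so its counts hold for the listed genes only. Angptl4, which rose 8.20-fold, was counted with the other angiogenesis factors and not on that list. Vegfa, a target of the same factors that was not on that list, was not called, as given above. A link of Vegfa to the falls on that list was not tested.

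Markers of cells that respond to these ligands were looked at beside the results. Of 8 endothelial markers, 4 passed the filter, Tie1 and Robo4 had 0 counts in every library, and the summed level was 3.95 to 4.11 CPM in caMNK and 5.47 to 9.67 CPM in pBABE. Most of it was Cdh5, which averaged 2.51 ± 0.275 CPM in caMNK and 6.85 ± 2.76 CPM in pBABE (SD, n = 3 and 2; edgeR adjusted p = 0.0141). That call was lost without pBABE replicate 2 or caMNK replicate 1. The other abundant endothelial markers, Tek and Pecam1, were under 1 CPM in every library and not called. They and Esam, the remaining tested marker, had log2 fold changes opposite in sign to that of Cdh5 (0.82 for Tek, 1.07 for Pecam1 and 1.45 for Esam, whose edgeR adjusted p was 0.0627), and the median over the 4 was 0.94. Of 7 fibroblast and mural cell markers, 5 passed the filter, and the summed level was 303 to 330 CPM in caMNK and 407 to 409 CPM in pBABE. Cspg4, Col1a1 and Pdgfrb made up most of that sum, and Col1a1 fell (log2 fold change −0.76, edgeR adjusted p = 0.0164) while Rgs5 rose (2.36, 0.00523). The Col1a1 call was lost without pBABE replicate 1, pBABE replicate 2 or caMNK replicate 1, and the Rgs5 call without pBABE replicate 1. Of 7 macrophage markers, 3 passed the filter, none was called, and the summed level was 16.0 to 21.7 CPM in caMNK and 16.7 to 17.9 CPM in pBABE, led by Csf1r, which shares reads with Hmgxb3, by Cd14 and by Cd68. Cd68 was above both pBABE libraries in each caMNK library (log2 fold change 0.68, edgeR adjusted p = 0.144), and passed as a rise without caMNK replicate 2 (0.00415) and with no low-count filter (0.0180). All libraries are labelled as the D4M.3A line, not as a tissue, and bulk RNA does not show which cells a marker transcript came from. The part of these markers in the results was not tested.

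The tested genes whose profile over the 5 libraries was nearest to that of a called ligand gene were found by Euclidean distance between log2 CPM values centred on each gene. For Vegfb they were Fbxo21 (distance 0.0531) and Vps8 (0.0714) out of 9320 genes, and for Pdgfd they were Ildr2 (0.225) and Ak4 (0.252) out of 9321 genes. Fbxo21 and Vps8 each had a log2 fold change of −0.43, that of Ildr2 was −0.97 and that of Ak4 was −0.94. These genes were picked by that distance, so fold changes close to those of the ligand genes follow from the choice. Ildr2 overlaps 5330438I03Rik, which had 6.95% of its counts.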

How the data were processed

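Total RNA was made into TruSeq Stranded Total RNA libraries, per the labels' protocols. The deposited values are raw read counts per gene with a gene length, 1 table per library. The submitters' processing notes name build mm10, featureCounts 1.5.3, STAR 2.5.3, Trimmomatic 0.32, SAMtools 0.1.19, FastQC 0.11.2 and DESeq2. The annotation release and how reads were assigned are not given there. Against GENCODE M21, on the same build, 21688 of 27786 genes with several exons had a deposited length equal to the gene span and 0 equal to the summed exons, so counts include introns and reads of overlapping genes cannot be told apart.

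Here, edgeR 4.0.16 in R 4.3.3 tested caMNK against pBABE on the deposited counts of all 5 libraries: filterByExpr by group, TMM scaling and robust quasi-likelihood fits, with group as the only term, tested on simulated data. Standard errors (SE) were derived from F (log2 fold change over √F), and 95% intervals use the fit's degrees of freedom without adjustment for the number of genes. limma 3.58.1, DESeq2 1.42.0, other scalings and filters, a replicate block and fits without each library were the alternatives. The genes and lists were chosen with earlier results of these data known. Named are the 8 ligand genes, Vegfd, Mknk1, every receptor gene, up to 5 called genes of each other list by lowest p, the 3 most abundant of each marker list, and the 2 nearest profiles (mean log2 CPM of 3 or more) of each called ligand gene. Rgs5, Esam and genes that overlap a ligand gene were named after their values were seen.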

Additional observations from a re-analysis of the deposited data

How the results depend on the processing

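Over all genes, 1352 passed with all libraries, 2921 without a filter on low counts, 2708 with a replicate block and 23 to 4942 with a library left out. Of the ligand genes 2 passed, 4 without a filter, 4 with a replicate block (15.9% of all genes), which added Vegfc and Pdgfc, and 0 to 5 with a library left out. Of the 54 tested genes of the 5 pathway lists 18 passed, against 7.94% of all genes. With caMNK replicates 1, 2 and 3 left out in turn, 5, 28 and 19 passed, against 1.51%, 29.6% and 10.2% of all genes. These lists were chosen with earlier results known, so the pooled count is not a test of them. The replicate numbers are not stated to pair the libraries, and the deviations of same-numbered libraries from their group means correlated at −0.0549 for replicate 1 and −0.0252 for replicate 2. Replicate 3 exists only in caMNK, so with the block that library adds nothing to the difference between the groups. Total-count scaling moved the median of all genes to 0.0515 and gave 999 rises and 465 falls, against 753 and 599 with TMM. The sign of Pdgfb turned with it (0.0060) and without caMNK replicate 2 (0.0088; range without a library −0.11 to 0.0088). Of the markers, Csf1r turned with the block (−0.049), and without a library Csf1r ranged from −0.047 to 0.14, Cd14 from −0.018 to 0.20 and S100b from −0.23 to 0.076. None of these was called. Of the other angiogenesis factors, 5 rose and 2 fell with the block, against 8.67% and 7.23% of all genes. With summed exons the levels per kb were 18.7 for Vegfa, 20.7 for Vegfb, 0.427 for Vegfc, 6.72 for Pgf, 33.5 for Pdgfa, 3.29 for Pdgfb, 6.86 for Pdgfc and 0.358 for Pdgfd. The cause of the other differences was not tested. Depth limits Vegfc and Pdgfd, with 18 to 67 counts per library.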

Other observations

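Of 18 tested genes of other angiogenesis factors, 4 rose and 0 fell (median log2 fold change 0.21). Over all genes tested 4.42% rose and 3.52% fell. Without caMNK replicate 2, 6 rose and 1 fell among 17 tested, in a fit where 13.9% of all genes rose and 15.7% fell. The rises numbered 0 without pBABE replicate 1 and 1 without pBABE replicate 2 or caMNK replicate 1. Angptl4, a secreted inhibitor of lipoprotein lipase that also acts on endothelial cells, measured 12.7, 6.50 and 12.4 CPM in caMNK, against 0.984 and 1.61 CPM in pBABE, an 8.20-fold rise (edgeR adjusted p = 0.00524). Thbs1 and Thbs2, which encode thrombospondins that restrain vessel growth, averaged 395 ± 28.8 and 395 ± 64.4 CPM in caMNK and 266 ± 39.1 and 239 ± 4.94 CPM in pBABE (SD, n = 3 and 2; edgeR adjusted p of 0.0224 and 0.0184). Jag1, a Notch ligand gene, rose 1.56-fold (edgeR adjusted p = 0.0339). The Angptl4 call was lost without pBABE replicate 1 (0.0907). The calls of Thbs1, Thbs2 and Jag1 were lost without pBABE replicate 1, pBABE replicate 2 or caMNK replicate 1.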
